A study of Homo sapiens with 4 samples.

Results

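Pleiotrophin and midkine are small secreted heparin-binding growth factors, and the 7 genes described here are both ligands, PTN and MDK, and the cell surface proteins through which they have been reported to act, PTPRZ1, SDC3, ALK, LTK and NCL. They were taken from the arrays by matching the RefSeq accession in each probe name to these gene symbols, which found all 7 genes, with 27 probes, among 17217 named genes. RNA came from HEK293 cells, a human embryonic kidney line transformed with adenovirus DNA, and the labels describe 4 biological replicates of a single untreated group grown in serum-containing medium. Each replicate was a separate plate of the same line harvested at confluence, and the design holds no second condition. A level is log2 of the mean signal of a gene's probes, and a distance is the level minus the baseline of its array.

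The ligands form a family of 2 in mammals and are highly expressed in the embryo, above all in developing brain, skeleton and kidney, where they promote neurite outgrowth, migration and survival. They bind strongly to sulfated sugar chains, so that their main binding sites are proteoglycans. PTPRZ1 is a receptor tyrosine phosphatase whose extracellular part carries chondroitin sulfate and which is inhibited when pleiotrophin clusters it, and syndecan-3 (SDC3) is a membrane heparan sulfate proteoglycan of neural cells. ALK and LTK are sister receptor tyrosine kinases, for which ALKAL1 and ALKAL2 are the established ligands and the role of pleiotrophin and midkine has been disputed. Nucleolin (NCL) is an abundant nucleolar protein of ribosome production, a small part of which reaches the cell surface and binds both growth factors.

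The letters just before the start of 3 genes are shown because these genes stand for different cases in the values that follow: PTN parted the arrays, SDC3 stayed below the detection baseline, and NCL was bright on every array. Each run is the 250 bases before the RefSeq start in assembly GRCh38.p14, read 5′ to 3′ on the minus strand, at chr7:137343734-137343983 for PTN, chr1:30908759-30909008 for SDC3 and chr2:231464485-231464734 for NCL. Capitals mark matches on either strand to TATAAA (the TATA box), GGGCGG (the GC box) and CCAAT (the CCAAT box).
PTN: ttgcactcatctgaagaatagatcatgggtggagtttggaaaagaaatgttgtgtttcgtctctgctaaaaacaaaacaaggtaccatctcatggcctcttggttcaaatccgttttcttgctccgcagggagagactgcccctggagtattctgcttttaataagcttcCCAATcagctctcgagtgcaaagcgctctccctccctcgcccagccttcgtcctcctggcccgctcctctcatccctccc
SDC3: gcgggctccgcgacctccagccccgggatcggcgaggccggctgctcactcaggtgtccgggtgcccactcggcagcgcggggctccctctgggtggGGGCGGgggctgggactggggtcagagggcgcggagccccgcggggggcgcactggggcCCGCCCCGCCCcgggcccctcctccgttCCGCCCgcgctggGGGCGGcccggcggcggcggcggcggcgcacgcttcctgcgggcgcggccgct
NCL: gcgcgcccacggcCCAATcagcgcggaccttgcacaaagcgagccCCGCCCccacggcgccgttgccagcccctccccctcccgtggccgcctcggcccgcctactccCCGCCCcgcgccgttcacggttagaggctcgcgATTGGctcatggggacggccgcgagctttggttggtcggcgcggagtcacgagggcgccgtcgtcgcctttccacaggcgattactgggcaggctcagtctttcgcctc
The PTN run held 1 CCAAT box and no GC box, the SDC3 run 5 GC boxes, 2 of which overlap each other by 1 letter, and the NCL run 2 GC boxes and 2 CCAAT boxes. None of these 3 runs held TATAAA. Of all 35116 promoter runs of this length, 42.6% held a GC box, 32% a CCAAT box and 10.7% TATAAA. G and C made up 50.4% of the PTN run, 83.6% of the SDC3 run and 72.0% of the NCL run, against a median of 58.0% over all promoters. These matches describe letters only, and the arrays did not measure the promoters.

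The baseline was the study's: the mean plus 2 SD of seminal protein genes thought to be silent in these cells, computed on each array. It was 10.10 ± 0.52 log2 units (SD, n = 4), from 9.47 on replicate 1 to 10.69 on replicate 3. Of the 10 control genes matched, SPATA5 (9.21 to 10.73) and SPATA13 (9.23 to 10.12) were brighter than the other 8, which ran from 6.05 to 7.72. SPATA5 itself exceeded the baseline on replicate 3, by 0.04. Without these 2 genes the baseline lay at 7.78, so a value below the baseline is not by itself a value at background. A gene with a mean distance above 0 counts as detected, and 9074 of all 17217 genes (52.7%) were. The sorted values of replicates 1 and 2 matched each other at 99.97% of ranks within 0.01 log2 units, and those of replicates 3 and 4 at 99.99%, whereas other pairs matched at 1.23% to 1.25%, the form that normalization in those 2 pairs would give. The 10th percentile of gene levels was accordingly 6.44 and 6.40 on replicates 1 and 2 but 7.14 and 7.05 on replicates 3 and 4. Fixed marker lists of cell types were read by the same rule, and no verdict on cell identity is drawn from them. Of epithelial markers 3 of 4 were detected, of neuronal markers 3 of 4, of kidney development markers 2 of 5 and of glial markers 2 of 5. Fibroblast markers gave 1 of 4, and blood and endothelial markers 0 of 4 and 0 of 3. Above the baseline on all 4 arrays were 3 of 4 epithelial, 2 of 4 neuronal, 0 of 5 kidney development, 1 of 5 glial and 0 of 4 fibroblast markers, beside 45.0% of all genes. The neuronal NEFM, at 0.66 ± 3.08, and the fibroblast COL1A1, at 0.37 ± 1.19, were above it on 2 of 4 (SD, n = 4 for each). The epithelial CDH1, not detected, lay on the baseline at -0.03 ± 0.58 (SD, n = 4). The detected kidney markers EYA1 and SIX2 lay on the baseline, at 0.11 ± 0.67 and 0.04 ± 0.45, as did the glial GFAP at 0.16 ± 0.78 (SD, n = 4 for each). PAX2, LHX1 and OSR1, genes of the developing kidney, lay below the baseline on all 4 arrays.

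Of the 7 genes, MDK and NCL exceeded the baseline on each of the 4 arrays, PTN lay far above it on 2 arrays and far below it on the others, and PTPRZ1, SDC3, ALK and LTK lay below it on each array. That is 2 of 7 by the mean rule, beside 52.7% of all genes, and 2 of 7 on all 4 arrays, beside 45.0% of all genes. Taken singly, replicates 1 and 3 had 3 of the 7 above the baseline, beside 58.1% and 47.4% of all genes, and replicates 2 and 4 had 2 of the 7, beside 54.2% and 50.2%. The genes were chosen with their values on these arrays known, so the counts are a description, and no test is given for any of them. Every probe has its own affinity, and distances of different genes do not measure how much of each transcript a cell holds.

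**Figure D1:**
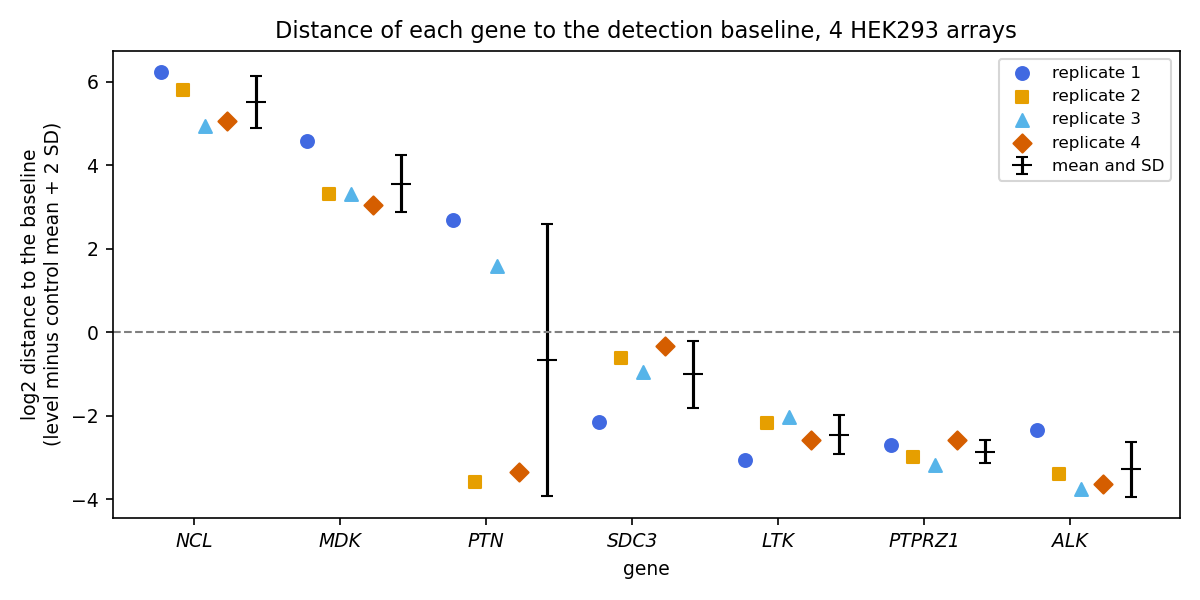
Log2 distance to the baseline (vertical axis) of the 7 genes on each of 4 arrays (symbols), with the mean and SD over arrays (bars); the dashed line is the baseline. NCL and MDK sit above the line on every array, PTN is at 2.68 and 1.58 on replicates 1 and 3 and at -3.58 and -3.34 on replicates 2 and 4, and the other 4 genes sit below the line throughout.

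PTN, which encodes pleiotrophin, was the gene among these 7 on which the cultures parted most widely. Its level was 12.15, 6.35, 12.27 and 6.98 log2 units on replicates 1 to 4. The arrays fell into a high pair (replicates 1 and 3) and a low pair (replicates 2 and 4) without overlap, and the gap between the pairs was 5.16 log2 units. On the low arrays PTN lay within the range of the 8 dimmer control genes, which ran from 6.05 to 7.72 over all arrays. Background itself was not examined, so the gap may be a lower limit of the difference. The rank of PTN changed with its level. On replicates 1 and 3, 68.8% and 71.9% of genes had lower levels than PTN, and on replicates 2 and 4 only 9.03% and 8.61% had.

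The split was present in each of the 3 PTN probes. The probe numbered 613 in the design read 12.81, 6.47, 13.05 and 6.67 log2 units on replicates 1 to 4, and the probe numbered 269 read 12.51, 6.59, 12.48 and 7.15. The probe numbered 1349 was dimmer, at 9.15, 5.91, 9.22 and 7.08, and showed the same order of pairs with a narrower gap of 2.08. With all 4 arrays quantile normalized together PTN read 12.05, 6.66, 12.36 and 6.68, and within each pair of arrays that shared a distribution 1 array was high and 1 low.

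The mean over arrays does not show this pattern. The mean distance of PTN was -0.67 ± 3.26 log2 units (SD, n = 4), which the rule of the study does not count as detected, although the distance was 2.68 on replicate 1 and 1.58 on replicate 3. On replicates 2 and 4 it was -3.58 and -3.34. The mean turned positive, to 0.31 and 0.22, without replicate 2 or 4, and fell further below the baseline, to -1.78 and -1.42, without replicate 1 or 3. It was also positive, from 0.65 to 1.66, under the 4 lower baselines described for SDC3. The SD of its level, 3.21 log2 units, compares with a median of 0.42 over all genes.

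**Figure D2:**
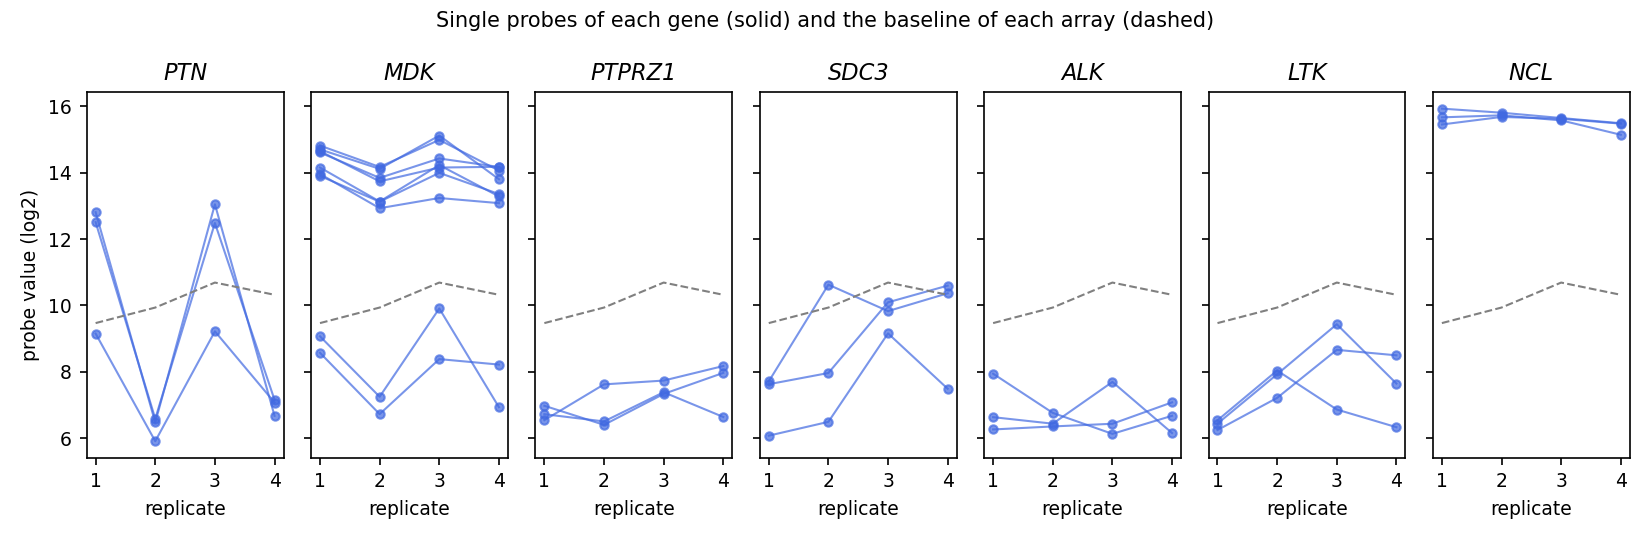
Log2 value (vertical axis) of every single probe of the 7 genes on replicates 1 to 4 (horizontal axis), 1 panel per gene; lines join values of the same probe and the dashed line is the baseline of each array. All 3 PTN probes are high on replicates 1 and 3 and low on replicates 2 and 4, 7 MDK probes lie between 12.93 and 15.12, and the NCL probes lie at the top of the scale.

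Such a split was rare among genes on these arrays. For each gene the 4 levels were sorted and the gap between the 2 higher and the 2 lower arrays was taken. It exceeded 3 log2 units in 22 of 17217 genes (0.128%), and that of PTN was the second in size. In 15 of these 22 genes replicates 1 and 3 were the higher arrays, as for PTN, in 6 it was replicates 2 and 4, and in 1 replicates 3 and 4. No gene with a gap of that size paired replicate 1 with 2 or with 4, or replicate 2 with 3. The excess of the PTN order was smaller at lower cuts. With a gap over 2 log2 units, replicates 1 and 3 were the higher arrays in 50 of 90 genes and replicates 2 and 4 in 36. With a gap over 1, these counts were 321 and 297 of 871 genes, and replicates 3 and 4 were the higher arrays in 237. The genes closest to PTN over the 4 arrays, by the root mean square difference of levels centred on each gene's own mean, were PSMD5, a proteasome assembly chaperone, at 0.25 log2 units, and SOX11, a transcription factor of embryonic neural progenitors, at 0.38. PSMD5 read 13.00, 7.07, 12.77 and 7.19 on replicates 1 to 4, and SOX11 read 13.43, 8.32, 13.39 and 7.97.

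**Figure D3:**
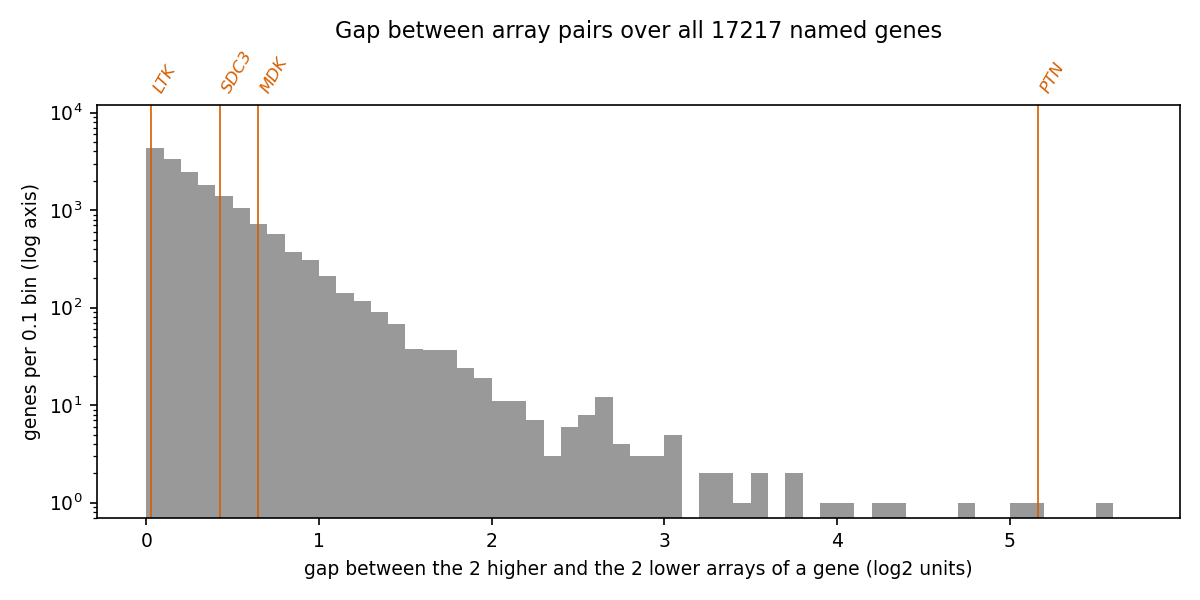
Number of genes (vertical log axis) by the gap between the 2 higher and the 2 lower arrays in log2 units (horizontal axis), over all 17217 named genes, with orange lines at 4 of the genes described. PTN, at 5.16, stands in the far tail, and MDK, at 0.65, SDC3, at 0.42, and LTK, at 0.03, lie in the bulk.

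Markers of other cell types moved with PTN in part. All 4 neuronal markers had replicates 1 and 3 above replicates 2 and 4, beside 22.2% of all genes, but STMN2 was below the baseline on every array and the gap of NEFL was 0.08. The log2 of their summed signal was 15.37, 14.29, 15.12 and 14.38 on replicates 1 to 4. NEFM, the medium neurofilament chain, read 13.57, 8.32, 13.09 and 8.08, whereas NEFL, the light chain, read 14.27, 13.88, 14.19 and 14.11. The remaining neuronal marker, INA, read 13.31, 12.13, 12.97 and 11.67, above the baseline on all 4 arrays, with a gap of 0.84. Among the 4 fibroblast markers COL1A1 followed the same arrays, at 11.34, 9.75, 11.36 and 9.42, while COL1A2, DCN and PDGFRB stayed below the baseline on each array. The summed fibroblast signal was 11.47, 10.08, 11.65 and 10.04. Blood markers summed to 8.41, 8.84, 9.28 and 9.13 and endothelial markers to 7.80, 7.84, 8.64 and 9.10, with no member detected in either list. The part of other cells or of a culture's history in the PTN values was not tested. In bulk RNA, fewer cells that make PTN and less PTN RNA in each cell cannot be told apart. Neither the labels nor the methods name a difference between the plates.

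MDK, which encodes midkine, was high in every culture. Its level was 14.04, 13.25, 14.00 and 13.36 log2 units on replicates 1 to 4, and its distance to the baseline was 3.56 ± 0.69 (SD, n = 4), with 88.7% of genes at a smaller mean distance. Replicates 1 and 3 were again above replicates 2 and 4, but by 0.65 log2 units, so that the ligands shared the order of the pairs and not its size. Both of replicates 1 and 3 lay above both of replicates 2 and 4 in 3 of the 7 genes, PTN, MDK and ALK, and in 22.2% of all genes. In 0 of the 7 the order was opposite, beside 18.5% of all genes. ALK, however, lay below the baseline on every array, and only 1 of its 3 probes had this order. With all 4 arrays quantile normalized together ALK read 7.36, 6.84, 6.65 and 6.40, and the order was lost.

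The array held 3 accessions of MDK, transcript variants of the gene, with 9 probes. Their targets had mean levels of 13.51 ± 0.51, 13.30 ± 0.37 and 14.18 ± 0.42 log2 units (SD, n = 4 for each). Single probes fell into a bright set of 7, from 12.93 to 15.12, and a dim set of 2, from 6.73 to 9.91. The dim probes were those numbered 35 and 87, the lowest numbers among the 9, and the bright ones were numbered 382 and above. Of the 3 targets in the order given, the first held probe 87, the second probe 35 and the third no dim probe. The target means therefore do not compare the variants apart from their probes. What the number stands for is not given in the sources used here. Of the 9 probes, 8 had replicates 1 and 3 above replicates 2 and 4, and the exception missed that order by 0.02. Probes of the variants can overlap in sequence, so they do not count as independent measurements.

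PTPRZ1, the phosphatase receptor, was not detected. Its level was 6.76, 6.96, 7.50 and 7.74 log2 units on replicates 1 to 4, higher on replicates 3 and 4 than on replicates 1 and 2, in the same way as the 10th percentile of all genes. Its distance was -2.87 ± 0.27 (SD, n = 4), and all 3 probes stayed between 6.40 and 8.18. When all 4 arrays were quantile normalized together the levels became 7.06, 7.21, 7.21 and 7.52, a range of 0.45 in place of 0.98.

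SDC3, the syndecan of neural cells, came closest to the baseline among the receptors that did not pass it. Its level was 7.31 log2 units on replicate 1 and 9.32, 9.75 and 9.99 on replicates 2, 3 and 4, so replicate 1 was low and the others lay together. Its range of 2.68 was the 312th of 17217 genes, and it was 2.50 after joint quantile normalization. The distance was -1.01 ± 0.81 (SD, n = 4) and negative on each array. This call depended on the baseline: with 1 SD, without SPATA5 and SPATA13 as controls, with olfactory receptor genes as controls, or with the median plus scaled median absolute deviation, the distance was 0.30, 1.31, 1.07 and 0.69. The probes did not move together. The probe numbered 644 read 7.71, 10.63, 9.83 and 10.37, the probe numbered 1305 read 7.63, 7.97, 10.10 and 10.60, and the probe numbered 310 read 6.08, 6.49, 9.16 and 7.49. On replicate 2 the level thus rested on 1 probe, which was 2.66 log2 units above the next.

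ALK and LTK, the paired receptor tyrosine kinases, were both below the baseline on each array. ALK read 7.14, 6.53, 6.92 and 6.69 log2 units on replicates 1 to 4, a distance of -3.29 ± 0.65 (SD, n = 4), with 9.34% of genes at a smaller mean distance. Its probes ran from 6.13 to 7.94 and had no common order of arrays. LTK read 6.41, 7.77, 8.66 and 7.74, a distance of -2.46 ± 0.46 (SD, n = 4). Without SPATA5 and SPATA13 as controls that mean distance was -0.13. Replicate 1 was the lowest for LTK as it was for SDC3, and replicate 3 the highest, with its probe numbered 1658 at 9.43 there and the probe numbered 3017 at 6.87. Below the baseline, low transcript and a weak probe cannot be told apart.

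NCL, the nucleolar protein, was the brightest of the 7. Its level was 15.70, 15.74, 15.62 and 15.38 log2 units on replicates 1 to 4, with a distance of 5.50 ± 0.62 (SD, n = 4), the 43rd of 17217 genes. The SD of its level was 0.16, below the median of 0.42 over all genes. Its probes ran from 15.14 to 15.93, next to the highest value in the table, 15.99. Saturation of single spots was not examined.

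Ordered by mean distance the genes ran NCL, MDK, PTN, SDC3, LTK, PTPRZ1 and ALK. On each of the 4 arrays NCL stood above MDK and MDK above PTN, although NCL and MDK are read by different probes and those of NCL lie at the top of the scale. PTN and SDC3 differed by 0.35 ± 3.96 log2 units (SD of the difference, n = 4), less than the spread between arrays. SDC3, LTK, PTPRZ1 and ALK lay below the baseline on every array. SDC3 stood above LTK on each of the 4 arrays, by 1.44 ± 0.60 log2 units (SD of the difference, n = 4), though different probes read them. No order is read among LTK, PTPRZ1 and ALK.

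The wider pathway was described through fixed lists of 80 genes, all of which were matched. Of these 62 (77.5%) were detected and 55 exceeded the baseline on each of the 4 arrays. The lists follow the roles of the genes but were written with earlier results of these arrays known, so these shares and those of the single lists below are descriptions. By the same rules 52.7% of all genes were detected and 45.0% exceeded the baseline on all 4 arrays. The median distance of the 80 genes was 1.75 log2 units, against 0.26 over all genes.

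The ligands of ALK and LTK gave 0 of 2 detected, beside 52.7% of all genes. ALKAL1 stood at -1.41 ± 0.45 log2 units and ALKAL2 at -2.97 ± 0.95 (SD, n = 4 for each), each below the baseline on every array, as their receptors were. Signalling proteins that ALK uses when active were mostly detected, with 8 of 10 detected, beside 52.7% of all genes. PTPN11, a phosphatase that relays growth factor signals, stood at 4.26 ± 0.65, the transcription factor STAT3 at 3.97 ± 0.99 and the adaptor GRB2 at 3.22 ± 0.62 (SD, n = 4 for each). The lowest of those detected was IRS1 at 0.87 ± 0.57 (SD, n = 4). SHC3, a neuronal adaptor, lay at -1.34 ± 0.27 and the kinase JAK2 at -1.11 ± 0.97 (SD, n = 4 for each).

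Of the other membrane proteins reported to bind pleiotrophin or midkine, 8 of 9 were detected, beside 52.7% of all genes. The lowest of those detected was ITGA4 at 0.25 ± 0.64 log2 units (SD, n = 4), above the baseline on 3 of 4 arrays. The integrin chain ITGB1 stood at 4.55 ± 0.82, the Wnt co-receptor LRP6 at 3.63 ± 0.25 and the integrin chain ITGAV at 3.40 ± 0.85 log2 units (SD, n = 4 for each). The one below the baseline on average was ITGB3, the integrin chain that pairs with ITGAV, at -0.85 ± 1.39 (SD, n = 4). Its level was 9.79, 8.31, 11.01 and 7.92 on replicates 1 to 4, above the baseline on replicates 1 and 3 and below it on replicates 2 and 4, the order seen for PTN with a gap of 1.48. Of the 80 pathway genes, 13 had replicates 1 and 3 above replicates 2 and 4, and 17 had them below. The shares over all genes were 22.2% and 18.5%.

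Proteoglycans differed from one another within each family. The other 3 syndecans were all detected by the mean rule, beside 52.7% of all genes. SDC4 at 1.74 ± 0.63 and SDC1 at 1.68 ± 0.79 were above the baseline on all 4 arrays, and SDC2 at 0.19 ± 0.70 log2 units on 2 of 4 (SD, n = 4 for each). SDC3 alone of the 4 syndecans lay below the baseline as the study sets it, and not under the 4 lower baselines given above. On replicate 4 its distance was -0.33 and that of SDC2 was -0.47, so the separation of these genes did not hold on each array. Of 6 glypicans, heparan sulfate proteoglycans held by a lipid anchor, 3 were detected, beside 52.7% of all genes. These were GPC3 at 4.47 ± 0.78, GPC4 at 2.67 ± 0.50 and GPC6 at 1.40 ± 0.20 (SD, n = 4 for each). GPC2, a binding partner of midkine in developing neurons, was at -0.84 ± 0.81, and GPC1 and GPC5 were at -0.27 ± 0.55 and -2.45 ± 0.69 (SD, n = 4 for each). Of 7 chondroitin sulfate proteoglycans 2 were detected, beside 52.7% of all genes, VCAN at 4.50 ± 0.56 and CSPG5 at 1.21 ± 0.18 (SD, n = 4 for each). The brain proteoglycans NCAN and BCAN, at -2.25 ± 0.84 and -1.37 ± 1.17, were below the baseline, as were ACAN, CSPG4 and DCN at -2.86 ± 0.14, -1.03 ± 0.49 and -3.45 ± 0.41 (SD, n = 4 for each).

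Enzymes that build and sulfate the sugar chains gave 19 of 22 detected, 17 of them on all 4 arrays, beside 52.7% and 45.0% of all genes. EXT1, which elongates heparan sulfate, stood at 3.62 ± 0.42, the sulfotransferase UST at 3.30 ± 0.49 and CHSY1, which elongates chondroitin, at 3.14 ± 0.55 log2 units (SD, n = 4 for each). NDST2, CSGALNACT1 and XYLT1 were the members below the baseline, at -2.88 ± 0.32, -2.43 ± 0.70 and -2.15 ± 1.08 (SD, n = 4 for each). CHST15, which makes the doubly sulfated chondroitin E units that both ligands bind, lay on the baseline at 0.01 ± 0.74 (SD, n = 4). It was named after its value had been seen.

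Partners and substrates of PTPRZ1 gave 8 of 10 detected, beside 52.7% of all genes, in cells where the receptor itself was not. The adhesion and Wnt protein CTNNB1, a substrate, stood at 4.93 ± 0.52, the kinase FYN at 4.17 ± 0.61 and the scaffold GIT1 at 3.47 ± 0.29 log2 units (SD, n = 4 for each). TNR, a matrix protein of the brain, was at -3.43 ± 0.37 and MAGI1 at -1.04 ± 0.67 (SD, n = 4 for each), while ARHGAP35 lay near the baseline at 0.42 ± 0.57 (SD, n = 4). Other nucleolar proteins, the companions of nucleolin inside the cell, gave 11 of 11, beside the same share of all genes. FBL, NOLC1 and NOP56 stood at 5.17 ± 0.82, 4.98 ± 0.65 and 4.84 ± 0.54, and the lowest, the polymerase I subunit POLR1B, at 0.57 ± 0.68 (SD, n = 4 for each).

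**Figure D4:**
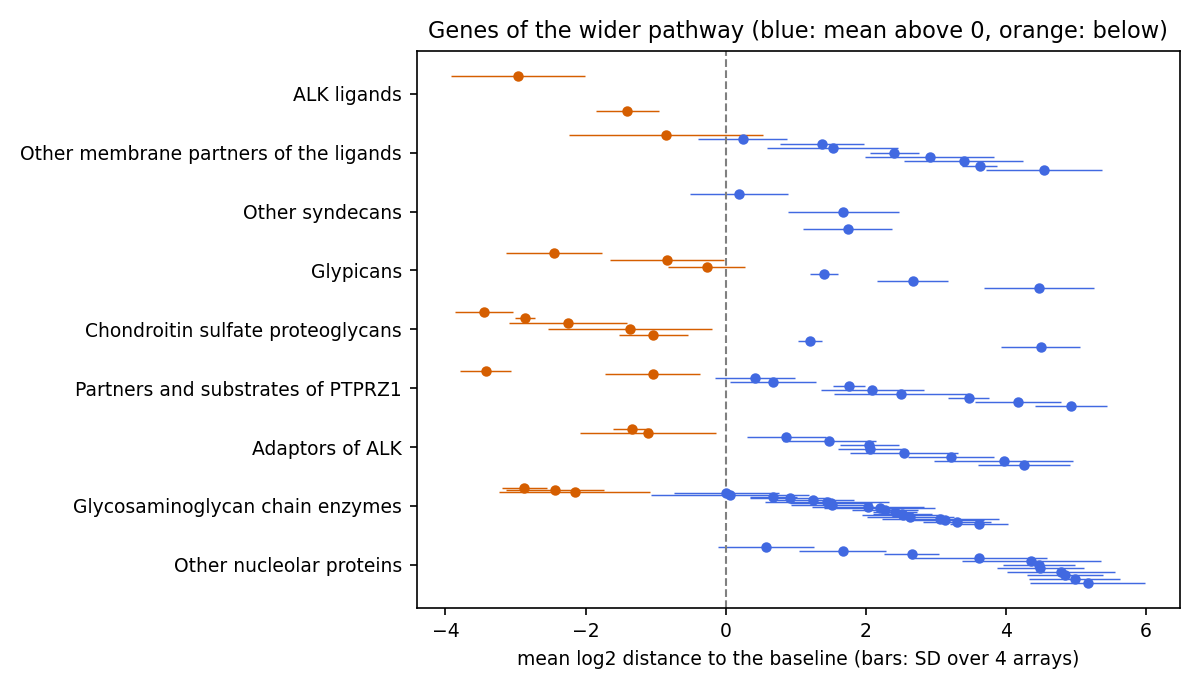
Mean log2 distance to the baseline (horizontal axis, bars: SD over 4 arrays) of the 80 genes in 9 lists (vertical axis); each point is a gene, blue above the baseline and orange below it. The nucleolar list lies wholly above the line, the ALK ligand list wholly below it, and the proteoglycan lists spread to both sides.

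The genes nearest in pattern to LTK, PTPRZ1 and SDC3, which also varied more than the median gene, were CRB2 and PRTG, PDE4C and TRHR, and HIPK4 and STKLD1, at root mean square differences of 0.03 to 0.12 log2 units. As these receptors lay below the baseline on every array, the likeness describes values that the study's rule does not count as detected.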

How the data were processed

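HEK293 RNA was copied from an oligo(dT) primer, labelled with Cy3 and hybridised to NimbleGen 60-mer arrays of the HG18 design, 1 array for each of 4 plates. The deposited table gives every probe a log2 value on each array, made by the authors from extracted intensities; the submitters' processing notes also list RMA, with no role stated. No raw intensities were used here. The number of arrays limits the precision.

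The 71998 probes formed 24000 targets, and 19125 targets were matched without version numbers to RefSeq transcripts (GRCh38.p14, for names and promoter sequence only), giving 17217 genes. Probes of a target were averaged on the linear scale before taking log2, and targets of a gene were averaged on the log2 scale. Of 11 seminal control genes 10 were matched. The baseline was their mean plus 2 SD on each array. Python 3.11.15 and pandas 2.3.3 were used.

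Members and lists were chosen with earlier results of these data known, so no p-values are given. Named genes were drawn from the members, controls, markers and all genes of lists of 8 or fewer. Others came from the 3 highest and 3 lowest of longer lists, not all of which are named, and from the 2 genes nearest in pattern. CHST15 was named besides. The promoter of MDK was not used here.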

Additional observations from a re-analysis of the deposited data

How the results depend on the processing

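The number of the 7 genes detected was 2, and it rose to 4 with a baseline of 1 SD, with the control genes SPATA5 and SPATA13 left out, with olfactory receptor genes as controls, and with the median plus scaled MAD; PTN and SDC3 were the genes added each time. The baseline then lay at 8.79, 7.78, 8.02 and 8.40 log2 units, and at 11.42 with 3 SD. Under those 4 lower baselines the distance of PTN became 0.65, 1.66, 1.42 and 1.04, and that of SDC3 0.30, 1.31, 1.07 and 0.69, because the baseline is subtracted from every gene alike. Leaving out 1 replicate gave 2 to 3 detected genes, a baseline of 9.91 to 10.32 and a PTN distance of -1.78 to 0.31. Each array alone, an alternative chosen after seeing the data, gave a PTN distance of 2.68 on replicate 1 and 1.58 on replicate 3, and a baseline of 9.47 and 10.69 there. By mean distance MDK and NCL stayed above the baseline, and ALK, LTK and PTPRZ1 below it, under every alternative run. LTK and PTPRZ1 came close to it, at -0.13 and -0.54 without SPATA5 and SPATA13 and at -0.37 and -0.78 with olfactory receptor genes as controls. The count of detected pathway genes stayed within 1.5 times of 62 under each. No paired analysis was possible because the arrays form 1 group. Values of different genes below the baseline give no reliable order of transcript amounts, and background was not examined.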
